A study of Mus musculus with 8 samples.

Results

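Histone genes encode the proteins that package nuclear DNA. They were compared here between serum-starved and unstarved IMCD3 cells, an established mouse kidney line from the inner medullary collecting duct. Members were all non-control probes whose gene name on the array starts with Hist1h, Hist2h, Hist3h, H2af, H3f or H1f. The rule gave 69 probes for 48 of 27745 gene names. Of these, 24 probes for 13 genes are replacement variants (H2af, H3f and H1f) and 45 probes for 35 genes lie in the replication-dependent clusters (Hist1h, Hist2h and Hist3h).

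Starved cells had been kept for 48 h in medium with no fetal calf serum, which makes IMCD3 cells grow cilia. Unstarved cells grew in 10% serum, were split on the day before and had not reached confluency at harvest, so serum and density differ together. Both groups are unmodified cells of the same line. Each of 4 Agilent 2-colour arrays carried 1 starved and 1 unstarved sample, which gives 4 samples per group and 2 replicates of 2 arrays each. The sample titles mark the second array of a replicate as a repeat of it, taken here as a technical run. Each group therefore has 2 replicates, not 4. By the labels, starved RNA was in Cy5 on both arrays of replicate 1 and in Cy3 on both arrays of replicate 2, so a replicate and a dye orientation cannot be told apart. Since these are bulk samples, a change in the number of cells in a cell cycle phase cannot be told apart from a change in RNA per cell.

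Replication-dependent histone genes lie in clusters and are transcribed mainly in S phase, when new DNA has to be packaged. Their mRNAs end in a stem-loop bound by SLBP instead of a poly(A) tail. Replacement variants are encoded by single genes whose mRNAs are usually polyadenylated and made throughout the cell cycle, and they are put into chromatin outside replication by chaperones such as HIRA and DAXX. The labels name the cRNA kit but not its primer, so how mRNAs without a poly(A) tail entered the labelled material was not tested.

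All 4 arrays shared 1 slide. Of 41174 probes, 24586 exceeded background clearly on the 4 arrays of 1 or both groups and were tested, among them 62 of the 69 histone probes. Log2 ratios correlated across probes at 0.990 between the arrays of a replicate and at 0.797 to 0.803 between replicates, and 74.2% of tested probes had the same sign in both. Of 15 collecting duct epithelium markers 14 were tested, against 0 of 8 endothelial, 3 of 9 fibroblast, 5 of 8 leukocyte and 4 of 8 male germ cell markers. The germ cell markers above background were Prm1, Prm2, Tnp1 and Tnp2, the protamine and transition protein genes, while Ddx4, Dazl, Sycp1 and Sycp3 were not. None of the 4 germ cell markers tested passed in limma (median -0.21). Of the 14 epithelial markers tested, 5 were higher in starved cells and 2 lower (median -0.02), among them Avpr2 (1.11) and Krt19 (-0.90). Among the 3 fibroblast markers 2 were lower (Col1a1 and Postn, median of the list -1.01). In the 5 leukocyte markers Csf1r was higher (1.44) and Ptprc lower (-0.50). The shares called in these lists were 50%, 66.7% and 40%, against 29.5% of all tested probes. The part of other cell types in the histone values was not tested.

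Coding sequence is so alike among cluster genes that a probe can bind transcripts of several. For 13 cluster probes and 2 variant probes the array's own annotation lists more than 1 gene, and up to 4. The following 60-base probes are shown because they carry the H2B result described further on. Capitals mark the longest run shared between the probe and the one it was compared with, which is Hist1h2bk for the first and Hist1h2bm for the others. They lie at chr13:21729735-21729794 on the plus strand (Hist1h2bm), chr13:22043524-22043583 on the plus strand (Hist1h2bk) and chr11:58770390-58770449 on the minus strand (Hist3h2bb) of build mm8.
Hist1h2bm: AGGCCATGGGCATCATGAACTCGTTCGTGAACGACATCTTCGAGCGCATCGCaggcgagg
Hist1h2bk: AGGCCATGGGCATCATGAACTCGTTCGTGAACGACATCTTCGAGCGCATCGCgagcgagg
Hist3h2bb: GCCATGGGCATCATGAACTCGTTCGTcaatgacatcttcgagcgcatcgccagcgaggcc
The Hist1h2bm and Hist1h2bk probes match at 58 of 60 bases, with an unbroken run of 52. The Hist3h2bb probe overlaps Hist1h2bm over 58 bases and matches at 54 of them.

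The next probes are shown because a replacement variant, H2afj, and cluster H2A genes share part of their sequence, so that their classes cannot be fully separated by hybridisation. Capitals mark the longest run shared between the H2afj probe (chr6:136772856-136772915, plus strand, mm8) and the cluster probes of Hist1h2aa (chr13:23942255-23942314, plus strand) and Hist1h2af (chr13:23541704-23541763, plus strand).
H2afj: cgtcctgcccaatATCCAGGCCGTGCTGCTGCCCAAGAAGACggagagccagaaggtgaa
Hist1h2aa: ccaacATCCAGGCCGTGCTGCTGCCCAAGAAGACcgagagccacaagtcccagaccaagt
Hist1h2af: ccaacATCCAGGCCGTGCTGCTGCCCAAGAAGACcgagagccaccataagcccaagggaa
The shared run is 29 bases. Linking probes of different genes by an ungapped overlap of at least 40 bases at 85% identity or more gave 4 groups with 12 probes in all. Identity was scored over the whole overlap of 2 probes at each offset, so a shorter shared run does not link them. The H2afj and Hist1h2aa probes shown form 1 of these groups. The Hist1h2af probe shown is in none and is counted outside the groups, although it shares a run of 44 bases with the Hist1h2aa probe.

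Some cluster probes reach past the coding sequence. The letters CTTTTCA, part of the histone stem-loop, occur on the sense strand in 3 of 69 histone probes (4.35%), against 0.862% of all probes. Stretches of 30 bases around these letters (in capitals) are shown because they place each probe against the end of the mature mRNA.
Hist1h2ae: CTTTTCAgagccattcacttaattcagtaa
Hist1h3a: aattaaccaaaggctCTTTTCAgagccaca
Hist1h2ab: gaaagttaaccaaaacaaaggctCTTTTCA
These are bases 1 to 30 of the Hist1h2ae probe (chr13:23578085-23578144, minus strand, mm8) and bases 31 to 60 of the Hist1h3a (chr13:23769352-23769411, minus strand) and Hist1h2ab probes (chr13:23758988-23759047, plus strand). The Hist1h2ae probe has 53 bases after the letters, the Hist1h3a probe 8 and the Hist1h2ab probe 0. Processed histone mRNAs end a few bases past the stem-loop, so most of the Hist1h2ae probe lies downstream of the usual end.

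Starved cells had higher signal for several replacement variants, and lower signal for 5 H2B probes of the clusters and for Hist1h4i, Hist1h3a and Hist1h2ae. Of the 62 tested probes 17 passed (limma, Benjamini-Hochberg adjusted p below 0.05 over all 24586 probes), 9 higher and 8 lower in starved cells. That is 27.4% of histone probes, near the 29.5% of all tested probes that passed (16.3% higher, 13.2% lower), a share that does not set histone genes apart by number. All 8 called variant probes, of 22 tested (36.4%), were higher, and 0 were lower; at an unadjusted limma p below 0.05 the counts were 9 and 0. Several of these probes belong to H1f0 and H3f3a. By the brightest probe of each gene, 3 of 12 variants were called, all higher (25.0%). Over all genes 31.7% were called that way in either direction, with 2945 of 16138 higher. By the mean of a gene's probes, 2 of 12 variants were called, all higher (16.7%). The share over all genes was then 30.4% in either direction, with 2722 of 16138 higher. Of 40 cluster probes 1 was higher and 8 were lower (22.5% called), against 16.3% and 13.2% of all tested probes. At an unadjusted limma p below 0.05 the counts were 3 and 11. In a refit to the brightest probe of each gene, with its own adjustment, 2 of 32 cluster genes were higher and 8 lower. A refit to gene means gave the same counts. The share called was 31.2% in each refit, with 2175 and 2177 of all 16138 genes lower. With the adjustment of the main fit, the brightest probes gave 1 cluster gene higher and 7 lower. No unadjusted share was taken over all probes, so the unadjusted counts of both classes have no reference. All 17 called probes had 1 sign on the 4 arrays, and in each of them the starved and unstarved levels did not overlap. The arrays of a replicate are technical runs, and the probes were chosen by limma on these same ratios. The lack of overlap is therefore no separate support. Levels are log2 single-channel signals after normalization, in arbitrary units.

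Median log2 ratios were 0.15 for variants and -0.05 for clusters, against 0.0007 over all tested probes. In replicate 1 the medians were 0.38 for variants and -0.08 for clusters, and in replicate 2 they were 0.07 and -0.12. The order of the classes was the same in both replicates, while the size for variants was not. No test was made between the classes. With median centring in place of loess 0 histone probes passed in limma, against 1.53% of all probes; at an unadjusted p below 0.05, 0 variant probes and 1 cluster probe (lower) remained. The class medians were then -0.12 for variants and -0.29 for clusters, each to be read against -0.07 over all probes. The median SE was 0.400 with median centring, against 0.129 with loess. The 8 lower probes kept their size or gained (Hist1h4i at -0.81, Hist1h2bm at -0.55), whereas the 9 higher ones all shrank, little for H1fx (0.47) and the called H2afy probe (0.76), and more for H2afv (0.47) and H3f3a (0.13 and 0.02).

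**Figure D1:**
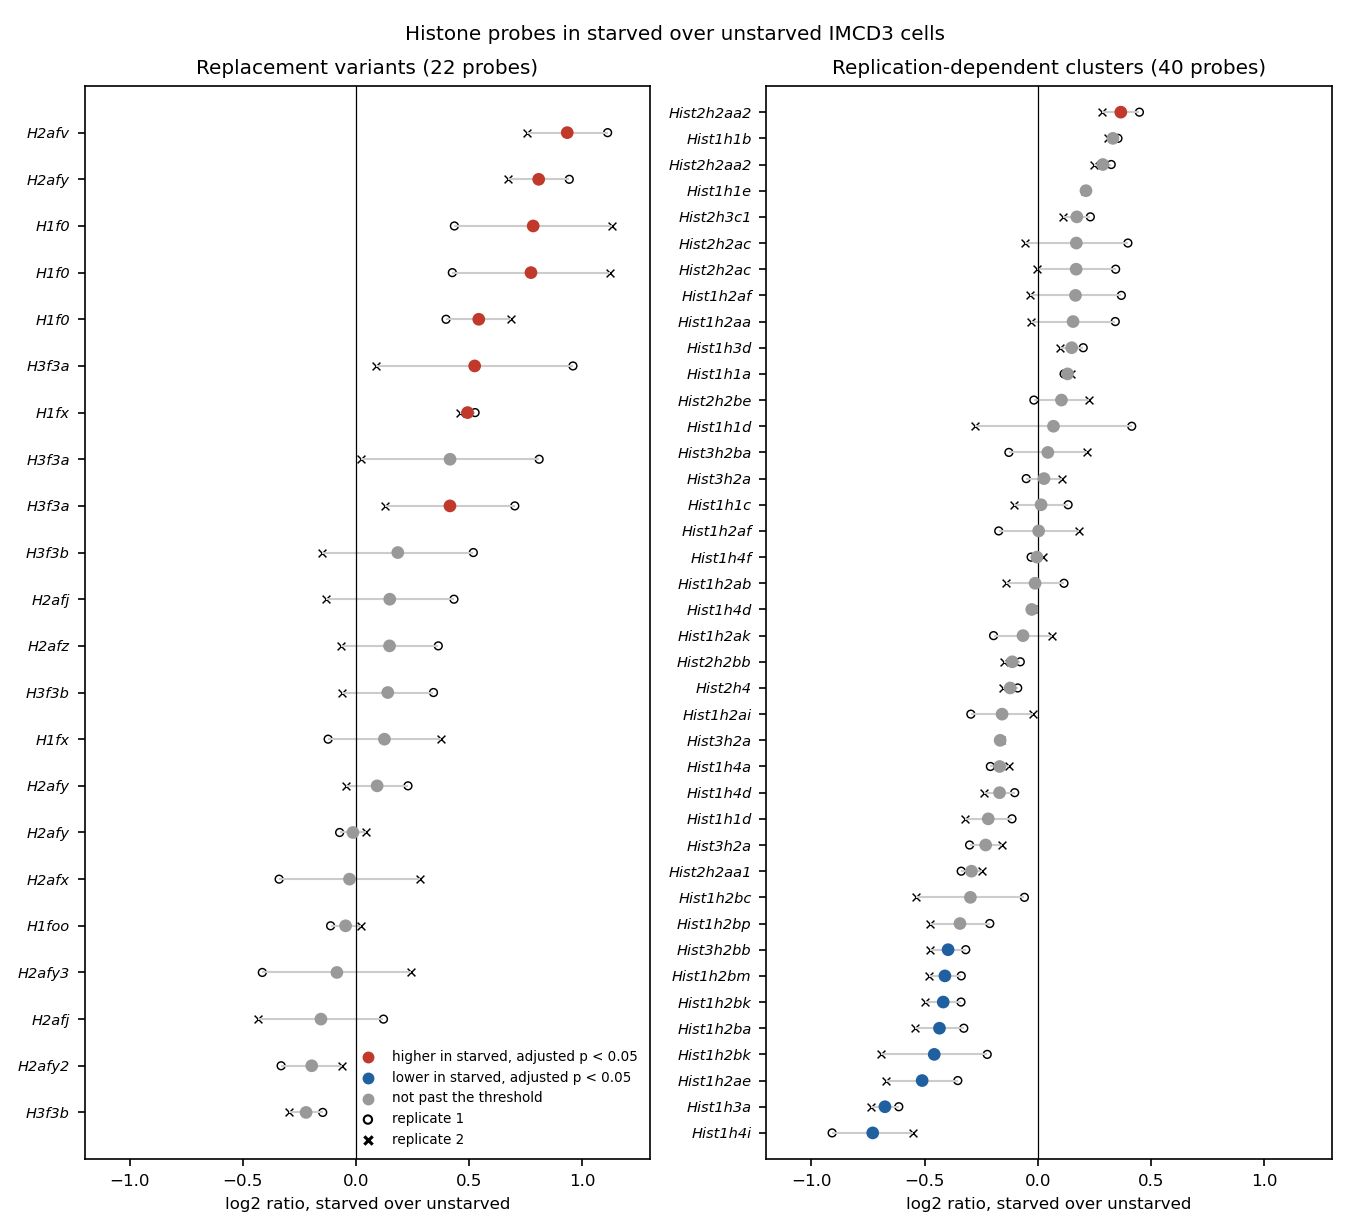
Log2 ratio of starved over unstarved cells for each tested histone probe, with replacement variants on the left and replication-dependent clusters on the right; large points are the mean of 2 replicates, circles replicate 1 and crosses replicate 2. Called variant probes all lie to the right of 0 and run up to 0.93 (H2afv), while called cluster probes lie to the left of 0, down to -0.73 (Hist1h4i), except for 1 Hist2h2aa2 probe at 0.37.

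Among variants of H2A, H2afv showed the largest ratio of all histone probes. It encodes H2A.Z.2, 1 of a pair of near-identical H2A.Z proteins that sit at promoters. Its level was 17.81, 18.02, 17.81 and 17.94 in starved cells on arrays 1 to 4, against 16.65, 17.29, 16.75 and 17.16 in unstarved cells. Every starved sample was above every unstarved one, by 1.91-fold on average (limma adjusted p = 4.3e-05, log2 ratio 0.93 ± 0.13 SE over 2 replicates). The other H2A.Z gene, H2afz, did not pass: its probe on chromosome 3 was at 17.67, 17.39, 17.62 and 17.47 in starved cells and at 17.27, 17.48, 17.30 and 17.51 in unstarved cells. These ranges overlapped, and the ratio was 0.36 in replicate 1 and -0.07 in replicate 2 (mean 0.15 ± 0.14 SE, limma adjusted p = 0.458). A second H2afz probe, which the array design places on chromosome 6, was not well above background on any array. The difference between the H2A.Z genes was not tested.

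The macroH2A1 gene H2afy, whose product carries a large macro domain and marks silent chromatin, gave different values by probe. Its probe for a cDNA record (chr13:56097874-56097933, minus strand, mm8) was at 11.85, 11.67, 11.84 and 11.68 in starved cells and at 10.91, 11.02, 10.90 and 10.99 in unstarved cells. This is a 1.75-fold higher signal without overlap (log2 ratio 0.81 ± 0.13 SE over 2 replicates; limma adjusted p = 0.000155). The probes on either side of it did not pass, with 0.09 ± 0.13 at chr13:56092789-56092848 and -0.01 ± 0.13 at chr13:56114014-56114073 (both minus strand). Mammalian macroH2A1 is made as alternatively spliced isoforms, and which of them the called probe measures was not tested. H2afy2, the macroH2A2 gene, was at -0.20 ± 0.13, and H2afy3 was at -0.08 ± 0.15.

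H2afx encodes H2A.X, which is phosphorylated at DNA breaks. Its replicates had opposite signs, -0.34 in replicate 1 and 0.28 in replicate 2 (mean -0.03 ± 0.15 SE). H2afj, a H2A variant that lies outside the clusters, had probes of opposite sign at 0.15 ± 0.14 and -0.16 ± 0.14, and neither passed. The first of these is the probe that shares 29 bases with cluster H2A genes. Of 10 variant H2A probes, 2 were higher (20%, near the 16.3% of all probes), 0 were lower and 8 did not pass, with a median of 0.04.

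Of the linker histone probes of the variant class, 4 of 6 were higher (66.7%, against 16.3% of all probes) and 0 lower, with a median of 0.52. Of these 4 calls 3 came from H1f0, and a pair of its probes overlaps by 54 bases (chr15:78856755-78856814 and chr15:78856761-78856819, mm8), so these are not independent; by the brightest probe of each gene, H1f0 was called and H1fx and H1foo were not. H1f0 encodes H1.0, the linker histone known to accumulate in cells that have left the cell cycle or differentiated, and all 3 of its probes passed. The probe at chr15:78856482-78856541 (plus strand, mm8) was at 15.53, 15.75, 15.50 and 15.77 in starved cells and at 15.11, 15.06, 15.14 and 15.09 in unstarved cells. Its log2 ratio was 0.54 ± 0.13 (SE over 2 replicates; limma adjusted p = 0.00455), and those of the others were 0.77 and 0.78 (1.71-fold and 1.72-fold). All 3 probes gave 0.40 to 0.43 in replicate 1 and 0.69 to 1.13 in replicate 2, so the sign was shared and the size was not.

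H1fx, which encodes the H1.X linker histone, had 1 probe higher in starved cells. This probe was at 10.16, 10.15, 10.30 and 10.11 in starved cells and at 9.63, 9.73, 9.77 and 9.62 in unstarved cells (log2 ratio 0.49 ± 0.13 SE over 2 replicates; limma adjusted p = 0.00697), without overlap. Another H1fx probe, designed on an EST and given no genome position by the array, was at 0.13 ± 0.14, with opposite signs in the replicates (-0.12 and 0.37). H1foo, the oocyte linker histone, was at -0.05 ± 0.13, and H1fnt, the spermatid linker histone, was well above background on only 3 of 4 arrays in each group and was not tested.

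Both H3.3 genes encode the same protein, the H3 variant of active chromatin, yet their probes gave different values. For H3f3a the probe at chr1:182639321-182639380 (minus strand, mm8) was at 17.23, 16.84, 17.34 and 16.87 in starved cells and at 16.28, 16.74, 16.37 and 16.79 in unstarved cells. The groups did not overlap, but the ratio was 0.96 in replicate 1 and 0.09 in replicate 2 (mean 0.52 ± 0.16 SE, limma adjusted p = 0.0225). A second H3f3a probe passed at 0.41 ± 0.14 (limma adjusted p = 0.0380), and the third, also at 0.41, did not (adjusted p = 0.0568). With the replicate as a random block over the 4 arrays both calls were lost, at limma adjusted p = 0.0722 and 0.0652. By the mean of its probes H3f3a was at 0.45 and did not pass (limma adjusted p = 0.0621). H3f3b did not pass with any of 3 probes (0.14, 0.18 and -0.22), and 2 of these had opposite signs in the replicates. The difference between the H3.3 genes was not tested.

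**Figure D2:**
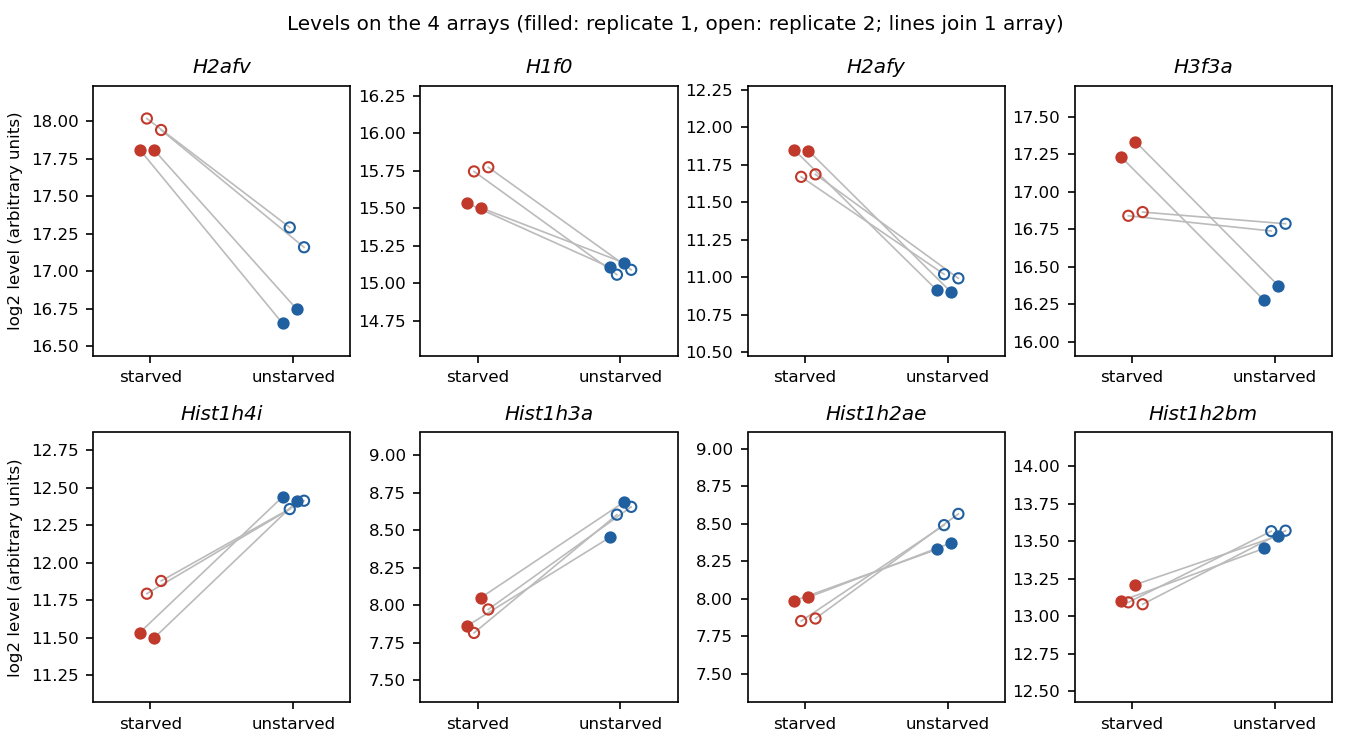
Log2 level (arbitrary units) of 8 called histone probes in starved cells (left, red) and unstarved cells (right, blue), with lines joining the samples of 1 array, filled points for replicate 1 and open points for replicate 2; each panel spans the same number of log2 units. The 4 starved samples lie above the 4 unstarved ones for the variants in the top row, and below them for the cluster genes in the bottom row; in H3f3a the arrays of replicate 2 differ far less than those of replicate 1.

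Replicates differed in several strong probes. Among the 5% of tested probes with the strongest signal were 9 variant and 6 cluster probes. Replicate 1 exceeded replicate 2 in 8 of the 9 (medians 0.52 and 0.02) and in all 6 cluster probes (0.34 and -0.02). Over all 1231 probes of that range it did so in 736, with medians of 0.01 in replicate 1 and -0.10 in replicate 2. Replicates also differed at lower levels, as in H2afx (level 14.86) and H1f0 (level 11.59), and the relation between level and spread was not tested.

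**Figure D3:**
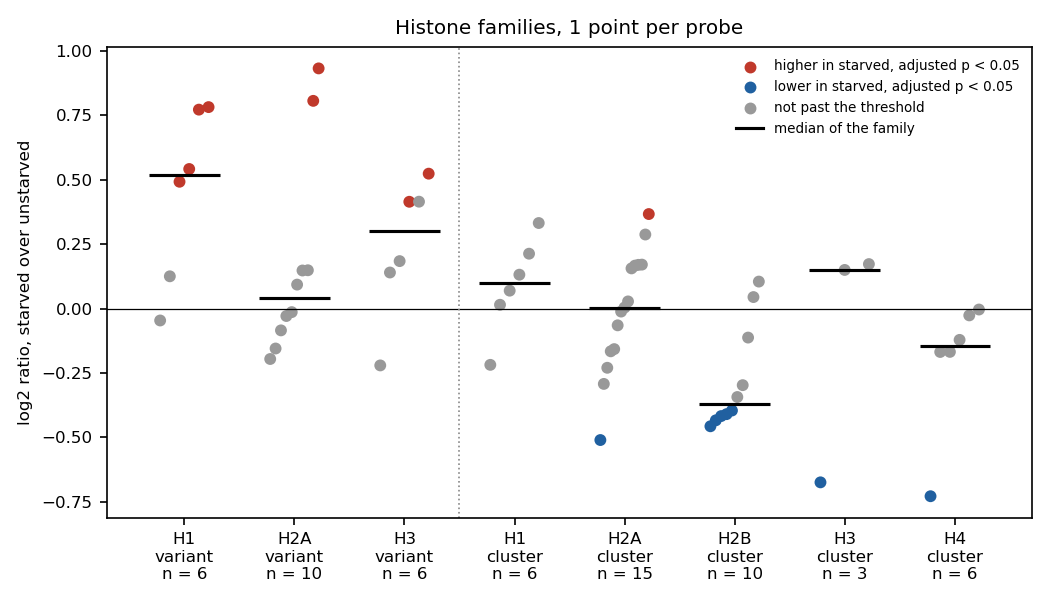
Log2 ratio of starved over unstarved cells by histone family and class, with 1 point per tested probe and a bar at the family median. Variant H1 (median 0.52) lies highest and cluster H2B (median -0.37) lowest; cluster H2A (0.0039) and variant H2A (0.04) lie near 0.

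H2B was the cluster family with the most lower calls, with 5 of 10 probes lower (50%, against 13.2% of all probes). None was higher, and the median was -0.37. H2B pairs with H2A in the nucleosome core. The Hist1h2bm probe was at 13.10, 13.09, 13.21 and 13.08 in starved cells and at 13.45, 13.57, 13.54 and 13.57 in unstarved cells. Starved samples were all below unstarved ones (log2 ratio -0.41 ± 0.13 SE over 2 replicates; limma adjusted p = 0.0219). Both Hist1h2bk probes were lower, at -0.46 ± 0.14 and -0.42 ± 0.13, and so were Hist3h2bb (-0.40 ± 0.13) and Hist1h2ba (-0.43 ± 0.13), with limma adjusted p between 0.0170 and 0.0266. Hist1h2ba is the testis-specific H2B gene, and Hist3h2bb carries a pseudogene symbol (H2bu1-ps) in the RefSeq gene table. The array's annotation lists the Hist3h2bb probe for H2bu2, the current symbol of Hist3h2ba, whose own probe was at 0.04 ± 0.13 and did not pass. The 5 H2B probes that did not pass ran from -0.34 to 0.10.

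These H2B calls are not independent of each other. The probes of Hist1h2bm, Hist1h2ba and Hist3h2bb and 1 of Hist1h2bk form a single group of related sequence, and all 4 were lower within a narrow range (-0.43 to -0.40). Hist1h2ba shares 35 of 40 overlapping bases with Hist1h2bm. Each Hist1h2bk probe and the Hist1h2bm probe are listed for 4 genes. Counting related probes once, the 8 lower cluster probes came from 5 sequences, 2 of H2B and 3 of other families. Outside the linked groups, 4 of 29 cluster probes were lower (13.8%), a share near the 13.2% over all probes, and 1 was higher. A group of 3 related cluster H2A probes, 1 of them for Hist1h2af, ran from -0.16 to 0.0039 and a group of 3 H4 probes from -0.12 to -0.0039; 0 probes passed in either group.

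The largest fall of a cluster probe was in Hist1h4i, a gene for the core histone H4. Its level was 11.53, 11.79, 11.50 and 11.88 in starved cells and 12.44, 12.36, 12.41 and 12.41 in unstarved cells. The groups were well apart (log2 ratio -0.73 ± 0.13 SE over 2 replicates; limma adjusted p = 0.000502). The probe was designed on an EST; the array design places only 7 of its bases on the genome (chr13:22048045-22048051, mm8) and lists no RefSeq transcript for it, so its gene rests on the array's name alone. The other 5 H4 probes, 3 of them listed for several H4 genes, ran from -0.17 to -0.0039 and did not pass.

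Hist1h3a, a gene for the core histone H3, was at 7.86, 7.81, 8.05 and 7.97 in starved cells and at 8.45, 8.60, 8.69 and 8.65 in unstarved cells (log2 ratio -0.68 ± 0.13 SE over 2 replicates; limma adjusted p = 0.000644). This probe covers the 3′ end of the transcript and ends 8 bases past the stem-loop letters shown above. The H3 probes for Hist1h3d and Hist2h3c1, each listed for several H3 genes, were at 0.15 ± 0.13 and 0.17 ± 0.13 and did not pass. Among H3 probes the lower signal was that of the 3′ probe, while both probes shared between genes were above 0; the difference was not tested.

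Hist1h2ae, a H2A gene, was at 7.99, 7.85, 8.01 and 7.87 in starved cells and at 8.33, 8.49, 8.37 and 8.57 in unstarved cells (log2 ratio -0.51 ± 0.13 SE over 2 replicates; limma adjusted p = 0.00714). Its probe lies mostly past the stem-loop, and whether it bound processed mRNA was not tested. Hist1h2ab, whose probe stops at the stem-loop letters and which is named for that after its value was seen, was at -0.01 ± 0.13. Of the other cluster H2A probes, the strong coding probes of Hist1h2aa (the testis H2A gene), Hist1h2af and Hist2h2ac were at 0.16 to 0.17 and did not pass, each with a replicate 1 value of 0.34 to 0.40 and a replicate 2 value below 0. A further Hist1h2af probe was at 0.0039.

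The only cluster probe called higher carries the array name Hist2h2aa2. Its levels ran from 7.92 to 8.06 in starved cells and from 7.49 to 7.72 in unstarved cells, without overlap (log2 ratio 0.37 ± 0.13 SE over 2 replicates; limma adjusted p = 0.0389). The call was lost without array 1 (adjusted p = 0.0818) and with the replicate as a random block (0.258). The gene's other probe was at 0.29 ± 0.13 (limma adjusted p = 0.100). Both were designed on a cDNA record and lie on the plus strand (mm8). The RefSeq promoter window of Hist2h2aa2 is on the minus strand. Whether either probe reads the mRNA of this gene was not tested. The called probe (mean level 7.80) and those of Hist1h2ae (8.18) and Hist1h3a (8.26) had weak signal. Tested cluster probes had a median level of 12.88 and a lowest level of 7.30.

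By cluster, 7 of 26 probes of Hist1 (chromosome 13) were lower and 0 higher. Hist2 (chromosome 3) had 0 lower and 1 higher of 9, and Hist3 (chromosome 11) had 1 lower and 0 higher of 5. Over all tested probes 13.2% were lower and 16.3% higher. The linked H2B group described above gave 4 of the lower calls of Hist1 and Hist3, so these calls are not independent. Cluster H1 had no call among 6 probes, which ran from -0.22 to 0.33, and 0 of them passed in either direction. Of the 13 genes with more than 1 tested probe, 5 had probes of opposite sign: H2afj, H2afy and H3f3b, described above, with Hist1h1d (0.07 and -0.22) and Hist3h2a (0.03, -0.17 and -0.23). The Hist3h2a probe at -0.23 lies on the opposite strand to the gene's other probes. None of the Hist1h1d and Hist3h2a probes passed. The 7 histone probes that were not tested were those of H1fnt, Hist1h1t, Hist1h2ac and Hist1h2be, and 1 probe each of H2afz, Hist1h1e and Hist3h2a.

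Promoter windows from RefSeq (GRCm38.p6, 300 bases that reach just past a start) were found for 41 of the 48 genes, 11 variants and 30 cluster genes. Letters of 4 motifs were searched on both strands. These were CCAAT for the CCAAT box, TATAAA for the TATA box, ATTTGCAT for the octamer of H2B promoters and AAACACA for the H1 box. CCAAT was in 7 of 11 variant and 28 of 30 cluster promoters, against 41.1% of all genes. TATAAA was in 1 variant and 20 cluster promoters, against 15.7% of all. The octamer was in 5 of 7 cluster H2B and 6 of 11 cluster H2A promoters, in none of the 12 of cluster H1, H3 and H4, and in 1.97% of all genes. The H1 box letters were in 5 of 6 cluster H1 promoters, against 8.22% of all. These matches describe the windows and were not tested as binding sites.

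Promoters of Hist1h2bk and Hist1h2bm are shown as examples beside that of H1f0, which was higher in starved cells. Probes of these H2B genes were lower, but each is listed for 4 genes. Capitals mark the letters of the 4 motifs on either strand. The windows are Hist1h2bk at chr13:22035571-22035870 (plus strand), Hist1h2bm at chr13:21721794-21722093 (plus strand) and H1f0 at chr15:79027962-79028261 (plus strand), all GRCm38.p6.
Hist1h2bk: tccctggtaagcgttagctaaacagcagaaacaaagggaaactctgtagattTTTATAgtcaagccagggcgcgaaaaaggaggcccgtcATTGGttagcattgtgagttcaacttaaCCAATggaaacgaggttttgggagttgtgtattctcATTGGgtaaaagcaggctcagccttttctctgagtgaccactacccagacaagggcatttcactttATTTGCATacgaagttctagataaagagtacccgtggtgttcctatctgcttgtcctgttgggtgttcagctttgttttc
Hist1h2bm: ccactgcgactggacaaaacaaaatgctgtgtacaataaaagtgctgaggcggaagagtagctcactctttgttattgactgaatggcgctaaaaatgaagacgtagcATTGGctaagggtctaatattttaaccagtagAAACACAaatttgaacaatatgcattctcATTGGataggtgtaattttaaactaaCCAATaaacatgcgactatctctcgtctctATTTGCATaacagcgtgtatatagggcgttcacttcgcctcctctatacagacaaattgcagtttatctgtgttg
H1f0: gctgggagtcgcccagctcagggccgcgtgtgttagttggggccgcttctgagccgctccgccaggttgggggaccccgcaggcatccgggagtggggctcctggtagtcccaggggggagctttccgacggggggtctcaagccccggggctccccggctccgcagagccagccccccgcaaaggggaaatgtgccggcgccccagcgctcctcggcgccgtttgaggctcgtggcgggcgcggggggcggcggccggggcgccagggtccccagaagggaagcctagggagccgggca
Both H2B windows hold the octamer and 3 CCAAT boxes, counting both strands, and the H1f0 window holds none of the 4 motifs. Of the other variants with a higher call, H2afv and H3f3a have CCAAT in their windows, and H3f3a also the H1 box letters. H1fx and H2afy have none of the motifs. The octamer is also in the window of Hist2h2bb, whose probe did not pass (-0.11).

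**Figure D4:**
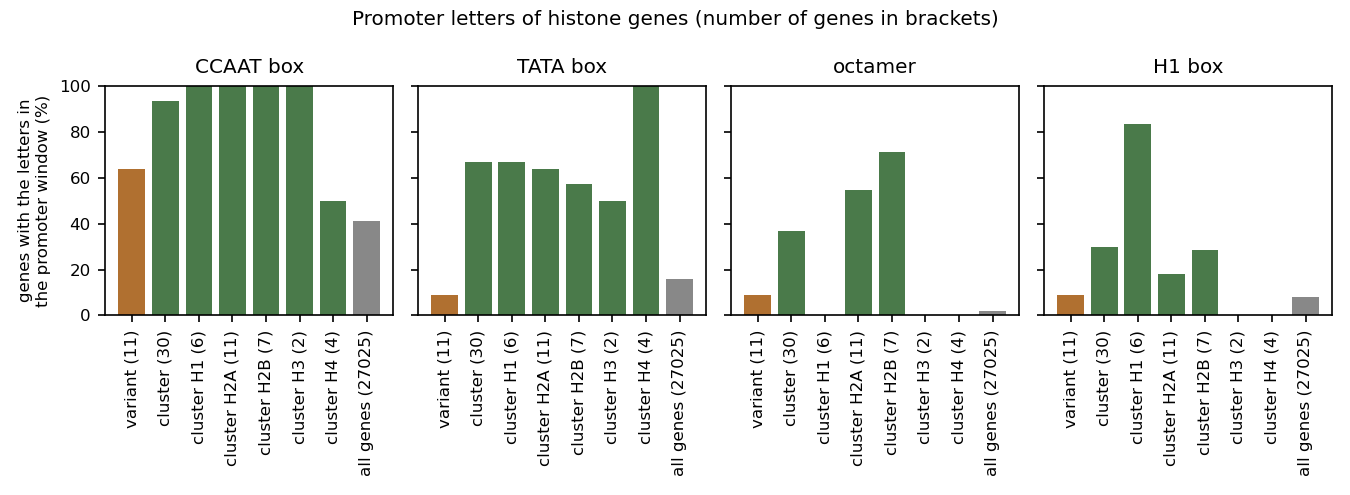
Share of genes (%, starting at 0) whose promoter window holds the letters of each motif, for replacement variants, all cluster genes, cluster genes by family and all genes of the table, with the number of genes in brackets. Cluster genes lie above all genes for each of the 4 motifs, and the octamer is seen in cluster H2A and H2B but not in cluster H1, H3 or H4.

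Of 17 genes for histone gene transcription and mRNA processing, 2 were higher, 1 was lower and 14 did not pass, with a median of -0.01; 17.6% were called, against 29.5% of all tested probes. Slbp, the stem-loop binding protein, was higher in starved cells (0.66 in replicate 1 and 0.30 in replicate 2; mean 0.48 ± 0.13 SE, limma adjusted p = 0.0110). Lsm10, a subunit of the U7 snRNP that cleaves histone pre-mRNA, was also higher (0.53 ± 0.13, limma adjusted p = 0.00402), and Cstf2, a cleavage factor of polyadenylation and histone processing, was lower (-0.59 ± 0.13, limma adjusted p = 0.00251). Npat, the coactivator of cluster histone genes, was at 0.27 ± 0.13 and did not pass.

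Of 12 genes for replication-coupled chaperones, 3 were higher and 1 was lower (33.3% called, near the share over all probes), with a median of 0.11. The subunits Chaf1b (0.70 ± 0.13) and Chaf1a (0.42 ± 0.14) of CAF-1, which deposits new H3 and H4 behind the replication fork, were higher, as was Tonsl (0.53 ± 0.13), a reader of new H4. Supt16h, a subunit of FACT, was lower (-0.41 ± 0.13), and Asf1b, which hands H3 and H4 on, was at -0.005 ± 0.13. Chaf1a did not pass with the Agilent processed signals (limma adjusted p = 0.0791).

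For replacement chaperones and exchange factors, 4 of 24 genes were higher and 3 lower (29.2% called, near the share over all probes), with a median of 0.04. Ubn1, a subunit of the HIRA complex that deposits H3.3, was higher (0.71 ± 0.13, limma adjusted p = 0.000371), while Hira itself (-0.06 ± 0.13) and Daxx (0.20 ± 0.13) did not pass. Hjurp (0.51 ± 0.14) and Oip5 (0.48 ± 0.13), both needed to load the centromeric H3 variant, were higher, whereas Cenpa, that variant, was lower (-0.44 ± 0.13, limma adjusted p = 0.0145). Npm1, a nucleolar histone chaperone, was lower (-0.64 ± 0.13). The remaining calls, named after their values were seen, were Dek (0.46 ± 0.13), Ruvbl2 (-0.43 ± 0.13) and Set (-0.40 ± 0.13). Set did not pass with the Agilent processed signals (limma adjusted p = 0.0689) or the deposited value table (0.0664). Dek did not pass by the mean of its probes (limma adjusted p = 0.0589). Hist4h4, an H4 gene outside the main clusters, was at -0.27 ± 0.13 and did not pass.

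Of 34 S phase genes, 8 were higher, 25 did not pass and 1 was lower, Ccne2 (-0.50 ± 0.14), the cyclin E2 gene, named after its value was seen; the median was 0.16. The share called was 26.5% (23.5% higher), against 29.5% (16.3% higher) over all probes. Lig1, the ligase of the replication fork (0.80 ± 0.13), the helicase subunits Mcm6 (0.68 ± 0.13) and Mcm7 (0.60 ± 0.13), and Pcna, the polymerase clamp (0.66 ± 0.16), were higher in starved cells. With median centring these 4 genes were at 0.18 to 0.48 and did not pass. Of 15 mitosis genes 1 was higher, Mki67 (0.51 ± 0.13), and 0 were lower, with a median of -0.03. The share called was 6.67%, against 29.5% over all probes.

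**Figure D5:**
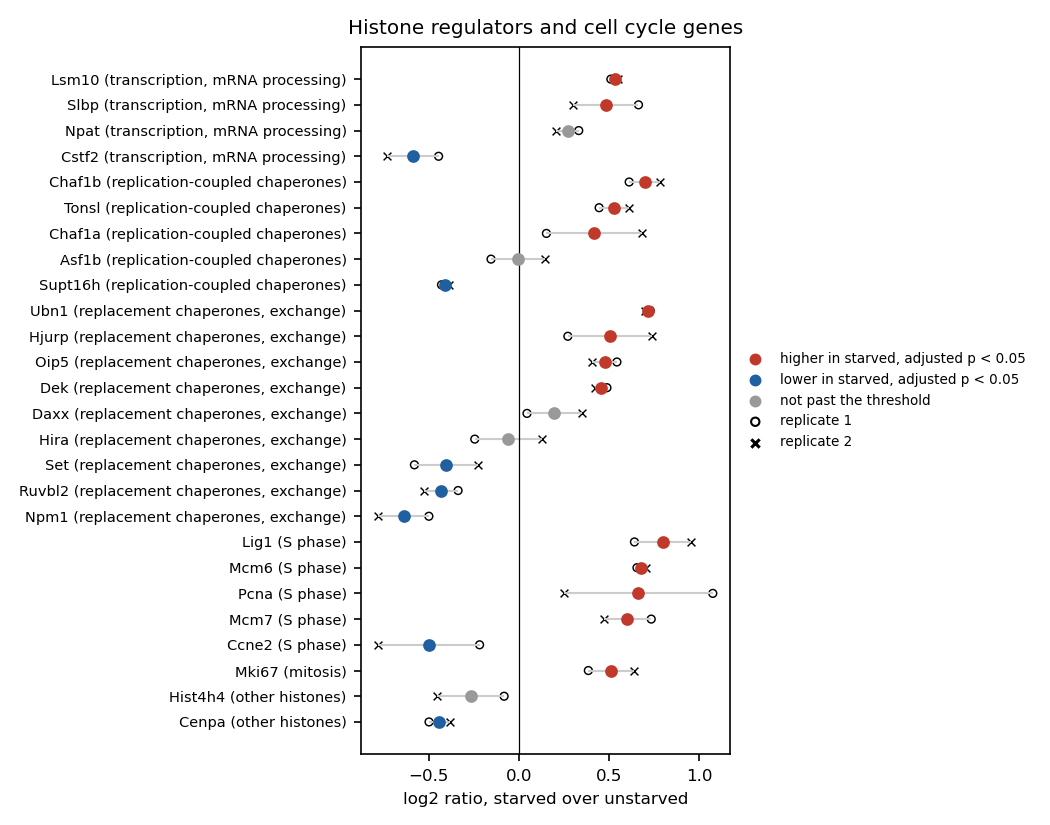
Log2 ratio of starved over unstarved cells for named genes of histone regulation, S phase and mitosis; large points are the mean of 2 replicates, circles replicate 1 and crosses replicate 2. Slbp, Chaf1b, Ubn1 and the S phase genes other than Ccne2 lie to the right of 0, and Ccne2, Cstf2, Supt16h, Npm1 and Cenpa to the left.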

How the data were processed

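Per the file headers, spot intensities (mean signal, median background) came from Agilent Feature Extraction 9.5.3.1. The deposited intensity values were not background-subtracted; the authors' value table, also of linear intensities, served as an alternative. In limma 3.58.1 (R 4.3.3), normexp with an offset of 50 corrected the mean signals and loess removed the dye trend of each array, with the 1639 control spots and 583 flagged spots at weight 0. Spots of a probe were averaged. After averaging both arrays of each replicate, lmFit and eBayes were run on 2 log2 ratios per probe, two-sided, with Benjamini-Hochberg adjustment over all probes (1 residual and 16.4 prior degrees of freedom). SE is limma's moderated standard error. The series text calls the replicates biological; it also speaks of a dye swap within each pair, which the labels do not show.

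Members and lists were chosen with earlier results of these data known. The text names every variant, every called cluster gene, the 5 other cluster genes with the strongest signal, genes whose probes differ in sign, and up to 4 called genes per list plus 10 fixed ones; 4 further list genes were named after their values were seen. Current names came from RefSeq (55 probes by accession, 14 by name). Alternatives changed normalization, signal source, array pairing, filters and probe choice. Arrays limit precision by their number. Same-numbered samples share arrays but carry opposite dyes; their deviations correlated at -0.330.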

Additional observations from a re-analysis of the deposited data

How the results depend on the processing

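With median centring in place of loess the 38 called probes named here kept their direction and lost their call, at a median SE of 0.400 in place of 0.129. All 15 named falls were as large or larger then, and the 23 named rises shrank, 10 of them to less than 50% of their log2 ratio (H3f3a to 0.13 and 0.02); the counts of histone probes called (0), variant probes higher (0), cluster probes higher or lower (0 and 0) and list genes called (0) all moved, and the medians were -0.12 for variants and -0.29 for clusters. The median of variants stayed above that of clusters under all alternatives run, by 0.16 (no filter on dim probes) to 0.46 (without replicate 2). Array pairings, the dye term, the random block and the unpaired or crossed levels left this difference at 0.19, as in the main fit. They change the error and not the mean ratios, so they could not alter the order. Pairing arrays 1 and 2 with 3 and 4, pairing 1 and 4 with 2 and 3, and a dye term take the difference between the labelled replicates out of the error: 53, 54 and 53 histone probes were then called (88.4%, 87.3% and 88.0% of all probes), with 15 variants higher each, 4, 5 and 4 variants lower, 14 clusters higher and 20 lower each, and 91 list genes each. In the fit with the replicate block as a random effect (correlation 0.947), 6 variant probes were higher and 1 cluster probe higher and 9 lower; Chaf1a was lost too (adjusted p = 0.0611, limma), and 34 of the 38 named calls were kept. With no replicate block, on unpaired single-channel levels, 8 variant probes were higher, 2 cluster probes higher and 9 lower, and 38 list genes were called. Crossed replicate numbers, chosen after seeing the data because same-numbered deviations were negative, gave 9 variants higher, 1 variant lower, 3 clusters higher, 9 lower and 57 list genes. Cluster probes called higher numbered 2 with offset 10, with Agilent processed signals, with the deposited value table, with the brightest probe per gene and with gene means, and 0 without array 1. Variants called higher were 3 genes by the brightest probe and 2 by gene means. The cluster median was -0.077 with processed signals or the value table, -0.012 with no filter and -0.086 by gene means; without an array or a replicate it ranged from -0.12 to -0.042, and that of variants from 0.067 to 0.38. The causes were not tested.

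Probes that did not pass turned sign as follows, none of them called under a setting that gave a p-value. Leaving out a replicate gave no p-value, so no call was possible there. With median centring H1fx was at -0.22, H2afj -0.28, H2afy -0.071, H2afz -0.30, H3f3b -0.31 and -0.26, Hist1h2af -0.27 and -0.31, Hist1h2aa -0.27, Hist2h3c1 -0.26, Hist2h2ac -0.25 and -0.26, Hist1h3d -0.24, Hist3h2a -0.26 and Daxx -0.050. By gene means H2afj was at -0.0034 and Hist3h2a at -0.12; Hist1h2af was at -0.0047 with offset 10 and -0.0014 without array 4, and Hist1h2ab at 0.0013 without array 2. Leaving out a replicate gave values on both sides of 0: H1foo -0.11 to 0.020, H1fx -0.12 to 0.37, H2afj -0.43 to 0.12 and -0.14 to 0.43, H2afx -0.34 to 0.28, H2afy -0.043 to 0.23 and -0.073 to 0.045, H2afy3 -0.41 to 0.24, H2afz -0.068 to 0.36, H3f3b -0.062 to 0.34 and -0.15 to 0.52, Hist1h2af -0.036 to 0.37 and -0.17 to 0.18, Hist1h2aa -0.031 to 0.34, Hist2h2ac -0.057 to 0.40 and -0.0047 to 0.34, Hist1h1d -0.28 to 0.42, Hist3h2a -0.051 to 0.11, Hist1h2ab -0.14 to 0.12, Asf1b -0.15 to 0.14 and Hira -0.24 to 0.13. No named call changed direction under any alternative run. Alternatives that change only the error (array pairings, dye term, random block, unpaired or crossed levels) could not change a direction.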
